A study of Homo sapiens with 68 samples.

Results

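7 small noncoding RNAs, 7SK, RMRP, RPPH1, VTRNA1-1, RNY1, RNY3 and RNY4, were followed through 68 peak lists of TLC-CLIP. Members were taken by their Ensembl gene identifier in the peak names, and they held 875 of 15800601 peaks and 7 of 22843 listed genes. TLC-CLIP crosslinks proteins to RNA with ultraviolet light (UV), trims the RNA with RNase, immunoprecipitates 1 protein and sequences the fragments that stay on it. The cells were HEK293T, an established human embryonic kidney line, and the 4 proteins, each taken with 1 antibody, were hnRNPA1, hnRNPc (antibody to hnRNP C1/2), hnRNPI and RBFOX2 (antibody named RBM9). The 68 libraries form 34 groups of 2 replicates. The labels do not say whether replicates were separate cultures, so the spread within a group may be technical.

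The tests used 32 libraries of 50000 cells: for each of the 4 proteins, 2 libraries crosslinked with PAGE, 2 crosslinked without PAGE, 2 without UV with PAGE and 2 without UV and without PAGE. PAGE is the gel step in which protein-RNA complexes are separated and cut out. All 32 libraries carry the label of 0.005 U of RNase, which the titles of the crosslinked libraries with PAGE call low RNase. The other groups are described by their values alone. They are medium RNase (0.025 U), the added RecJ digestion (an exonuclease step) and hnRNPc libraries titled 5k and 500. Further groups are hnRNPc and RBFOX2 libraries of 10000 and 1000 cells (0.001 and 0.0001 U of RNase). The last are 4 other regions of the hnRNPc gel, labelled 10000 cells and 0.001 U. The protocol in the labels is identical for every library and includes the UV step, so the omission of UV is known from the titles. A peak list of immunoprecipitated RNA gives no check of the cell line, and none was made.

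All 7 RNAs belong to the transcripts of RNA polymerase III, which makes short structured RNAs in every tissue. 7SK scaffolds the particle that keeps the elongation factor P-TEFb inactive, and proteins of the hnRNP A family are known to bind 7SK when P-TEFb is released. RMRP and RPPH1 are the RNA subunits of the ribonucleases MRP and P, which process ribosomal RNA and the 5′ ends of transfer RNA. VTRNA1-1 is a vault RNA, named for the large vault particle, and Y RNAs (RNY1, RNY3, RNY4) are bound by Ro60 and La. hnRNPI, also called PTB, binds pyrimidine-rich RNA and is known to bind some Y RNAs.

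The level of an RNA in a library is the read number summed over its peaks, divided by that sum over all listed genes and multiplied by 1000000. It is given below as listed RPM, for reads per 1000000 listed. Overlapping peaks of an RNA can count the same reads, so a place that the caller divides into more peaks has a higher level. An RNA without a peak is called not listed, which is not a level of 0, because the number of sequenced reads is unknown. The 32 libraries ranged from 49769 to 12349790 listed reads. The lowest was replicate 1 of crosslinked hnRNPc with PAGE, with 3268 peaks, and the other 31 libraries had at least 255287 listed reads. That replicate listed only 7SK and RMRP among the 7 RNAs, and the tests that use it are given with its group and again without the hnRNPc pair with PAGE. Peaks of mitochondrial RNA took 0.349% to 24.5% of listed reads in the crosslinked libraries other than that replicate and 7.21% to 36.4% in those without UV. Part of that range is shared, and with those peaks left out of the scaling no call on the 6 tested RNAs changed.

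7SK (ENSG00000202198, chromosome 6, plus strand, listed from 52860439 to 52860748 on hg19) was listed in 68 of 68 libraries. RMRP (ENSG00000269900, chromosome 9, minus strand, 35657776 to 35657998) was listed in 67 and RPPH1 (ENSG00000259001, chromosome 14, minus strand, 20811233 to 20811572) in 66. VTRNA1-1 (ENSG00000199990, chromosome 5, plus strand, 140090872 to 140090958) was listed in 49 libraries. On chromosome 7, RNY1 (ENSG00000201098, minus strand, 148684271 to 148684341) was listed in 59, RNY3 (ENSG00000202354, plus strand, 148680889 to 148680948) in 15 and RNY4 (ENSG00000252316, plus strand, 148660407 to 148660501) in 3. The listed peaks together spanned 310 nt of 7SK, 340 nt of RPPH1, 223 nt of RMRP, 87 nt of VTRNA1-1, 71 nt of RNY1, 60 nt of RNY3 and 95 nt of RNY4. RefSeq gives these RNAs 332, 341, 270, 98, 113, 102 and 96 nt.

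The lists carry RMRP and RPPH1 under a second identifier each, which is not a member. ENSG00000199916 has peaks from 35657777 to 35657983 on the same strand as RMRP, in 67 libraries, with a median of 0.967 times the reads of RMRP. ENSG00000252678 has peaks from 20811262 to 20811549 on the strand of RPPH1, in 63 libraries, with a median of 0.586 times its reads. Values of RMRP and RPPH1 therefore describe 1 of 2 entries for the same place, and how the reads were divided between the entries is not given in the sources used here. 7SK, vault and Y RNAs also have near-identical copies elsewhere in the genome, and the treatment of reads that match several places is likewise not given, so their levels are uncertain to that extent.

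7SK was highest with hnRNPA1. In crosslinked hnRNPA1 libraries it reached 24072 and 15968 listed RPM with PAGE and 8764 and 8792 without. RBFOX2 libraries had 463 and 635 with PAGE and 687 and 392 without. In hnRNPI libraries the values were 154 and 121 with PAGE and 106 and 89.3 without. hnRNPc was the exception to an even pattern: 163 and 146 without PAGE, but 15532 and 1669 with PAGE. Without PAGE the order was therefore hnRNPA1, RBFOX2, hnRNPc and hnRNPI, and no pair of neighbours in that order overlapped. With PAGE the hnRNPc replicates lay far apart, the upper one just under the lower hnRNPA1 library, and RBFOX2 stayed above hnRNPI. The upper hnRNPc value is the one from the library of 49769 listed reads and rests on 773 reads, while the lower rests on 4146.

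RMRP and RPPH1, the RNAs of the related ribonucleases, were both highest with RBFOX2 in the crosslinked libraries without PAGE. Crosslinked RBFOX2 libraries gave RMRP 317 and 472 listed RPM with PAGE and 869 and 926 without. For RMRP without PAGE, hnRNPI followed with 212 and 145, hnRNPc with 135 and 126, and hnRNPA1 was lowest with 48.5 and 36.4. No neighbours overlapped in that order. With PAGE, hnRNPI (51.5 and 69.8) and hnRNPA1 (64.4 and 64.5) did overlap for RMRP, and hnRNPc had 743 and 138, the first of them from 37 reads and above both RBFOX2 libraries.

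Crosslinked RBFOX2 libraries gave RPPH1 243 and 252 listed RPM with PAGE and 744 and 908 without. For RPPH1 without PAGE, hnRNPI had 235 and 201, hnRNPA1 67.8 and 71.3, and hnRNPc 27.0 and 18.6. The groups did not overlap, and the order of hnRNPA1 and hnRNPc was opposite to that of RMRP. With PAGE, hnRNPI had 78.8 and 161 of RPPH1, hnRNPA1 had 54.6 and 54.5, and hnRNPc was not listed in replicate 1 and had 28.6 in replicate 2.

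RNY1 was highest with hnRNPI among the crosslinked libraries. In hnRNPI libraries RNY1 had 327 and 59.0 listed RPM with PAGE and 408 and 289 without. In RBFOX2 libraries it had 86.5 and 62.7 with PAGE and 31.98 and 33.7 without. hnRNPA1 libraries had 8.20 and 17.4 with PAGE and 7.32 and 8.02 without, and hnRNPc libraries had 8.86 in replicate 2 with PAGE and 6.16 and 7.37 without. Without PAGE, hnRNPI lay above RBFOX2 and RBFOX2 above the others without overlap, and hnRNPA1 overlapped hnRNPc. With PAGE the lower hnRNPI replicate fell below both RBFOX2 libraries.

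RNY3 was listed in few libraries, and its levels were at most 12.5 listed RPM. Crosslinked hnRNPI libraries listed it at 12.5 in 1 of 2 replicates with PAGE, at 3.78 and 4.29 without PAGE and at 7.91 and 8.96 with RecJ. hnRNPA1 libraries without PAGE had 1.57 and 1.05. RNY4 was listed in 1 crosslinked library, hnRNPA1 with RecJ replicate 1, at 1.47, and in both RBFOX2 libraries without UV and without PAGE, at 10.7 and 4.78. RNY4 was too rarely listed to be tested, since a gene had to be listed in at least 8 of 32 libraries.

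VTRNA1-1 was low in every crosslinked library. It had 24.4 and 13.8 listed RPM with hnRNPI and PAGE, and 17.2 and 16.8 without PAGE. RBFOX2 libraries had 11.4 and 18.6 with PAGE and 11.2 and 14.002 without. hnRNPc libraries without PAGE had 3.55 and 3.202, and hnRNPA1 libraries without PAGE had 2.27 and 2.02, while with PAGE each of these proteins listed VTRNA1-1 in 1 of 2 libraries. Without PAGE the order was hnRNPI, RBFOX2, hnRNPc and hnRNPA1, with no overlap between neighbours.

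**Figure D1:**
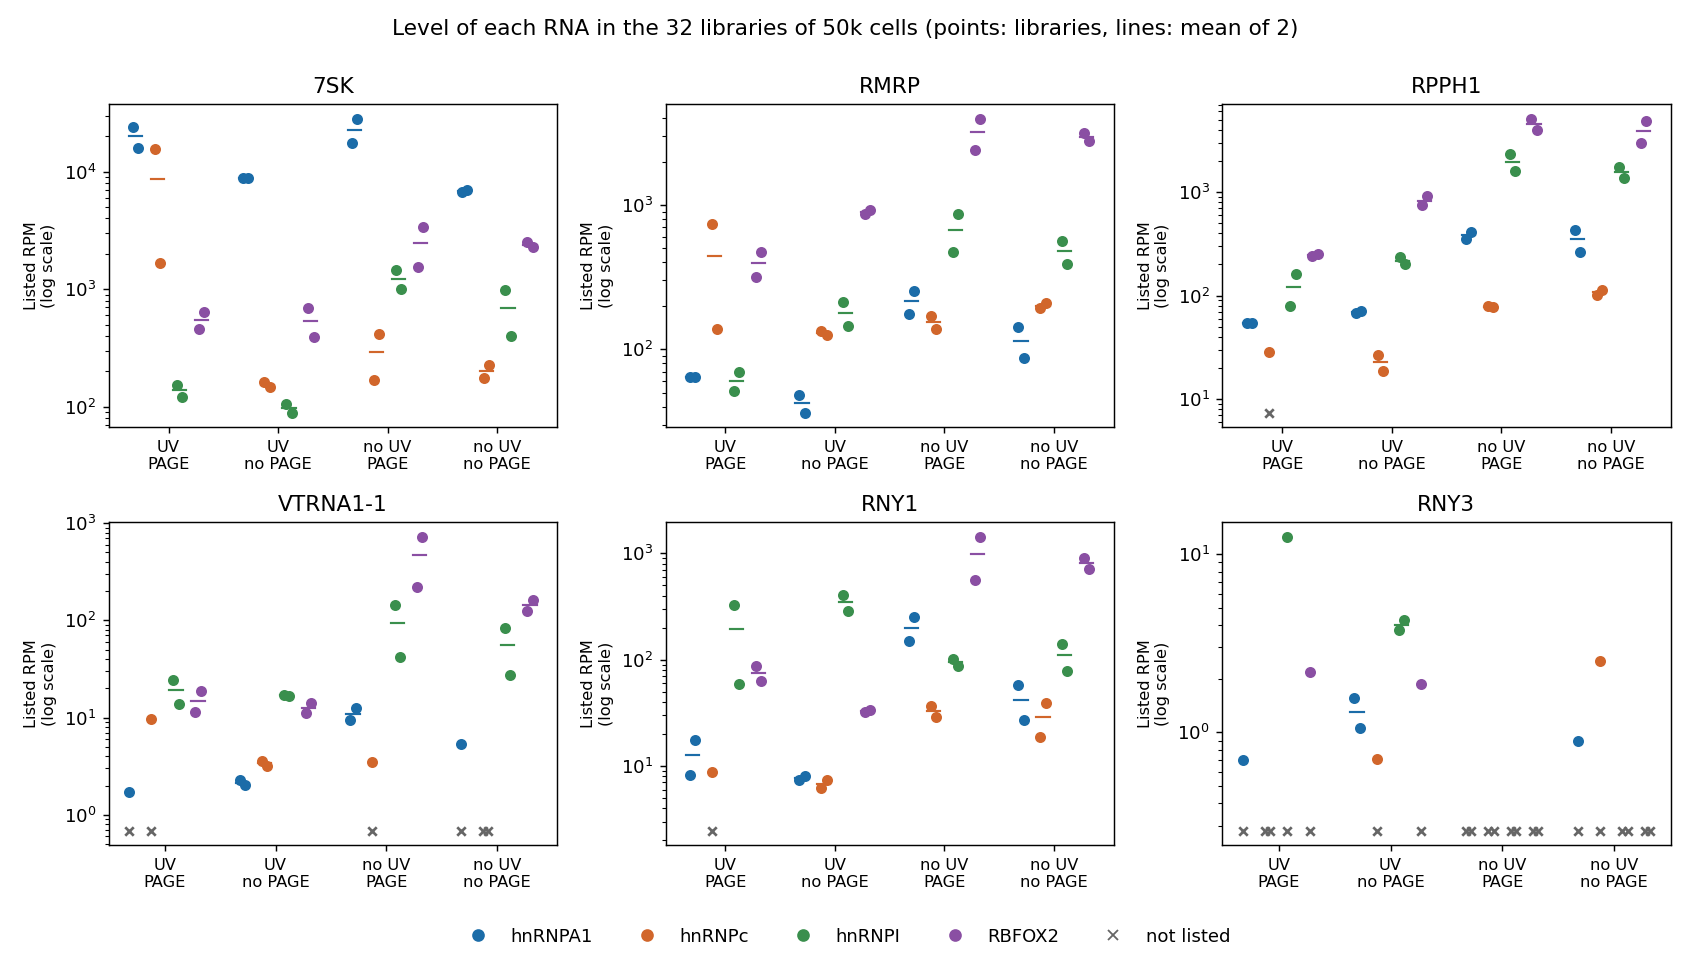
Listed RPM (log scale) of 6 RNAs in the 32 libraries, by UV and PAGE; points are libraries, lines are means of groups listed in both libraries, and crosses mark libraries in which the RNA is not listed. 7SK stands highest with hnRNPA1, RMRP and RPPH1 stand highest with RBFOX2 without UV, and RNY1 in crosslinked libraries without PAGE stands highest with hnRNPI.

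The 4 proteins were compared with limma on log2(level + 1), fitted over 15396 genes, with p-values adjusted by Benjamini-Hochberg over all of them. Without PAGE, 4 of the 6 tested RNAs differed between proteins at adjusted p below 0.05, where 53.2% of all genes did. The gap between the highest and the lowest protein was 6.48 on the log2 scale for 7SK (limma adjusted p = 5.41e-07), 4.38 for RMRP (1.98e-05), 5.14 for RPPH1 (0.000339) and 5.48 for RNY1 (0.000107). VTRNA1-1 with a gap of 2.52 (0.105) and RNY3 with 1.94 (0.164) did not pass. With the hnRNPc pair with PAGE left out of the fit VTRNA1-1 passed (adjusted p = 0.0315), and RNY3 passed without either crosslinked hnRNPI library with PAGE (adjusted p = 0.0307 and 0.0319). The median gap was 4.76 for the 6 RNAs and 2.91 for all genes. With the level taken from the peak with the most reads alone, the same 4 passed, with smaller gaps of 5.54 for 7SK, 2.65 for RMRP, 3.23 for RPPH1 and 3.83 for RNY1. With so large a share of all genes called, a difference between proteins was the common case.

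With PAGE, 5 of 6 passed against a background of 64.1%, namely those 4 and VTRNA1-1. Their gaps were 7.15 for 7SK (limma adjusted p = 1.02e-07), 2.67 for RMRP (0.000212), 5.51 for RPPH1 (0.000118), 5.48 for RNY1 (0.000111) and 3.56 for VTRNA1-1 (0.0132). RNY3 had 1.88 (0.162), and 3.76 (0.00106) without replicate 2 of crosslinked hnRNPI with PAGE. Without the hnRNPc pair with PAGE all 5 remained called, with gaps of 7.15 for 7SK (adjusted p = 2.03e-09), 2.67 for RMRP (2.29e-06), 2.16 for RPPH1 (5.23e-05), 3.43 for RNY1 (0.000431) and 3.56 for VTRNA1-1 (0.00248). Only 1 of the 5 remained called, 7SK, when the fit held just the 8 libraries of this comparison. The VTRNA1-1 call was also lost without replicate 2 of crosslinked hnRNPA1 with PAGE (adjusted p = 0.0716).

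The positions of the reads along an RNA were read from the peak with the most reads in each library. Positions are counted in nt from the 5′-most listed base of the RNA, which need not be its true 5′ end, and refer to the inner interval that the peak caller gives within the peak. All 68 libraries put the main 7SK peak between nt 234 and 262. Of 102 peaks of 7SK, 99 began past nt 200, and they held 99.9% of its reads. The other 3 came from 1 library, replicate 2 of hnRNPc at medium RNase. In crosslinked hnRNPA1 the main 7SK peak lay from 52860683 to 52860733 (64320 reads) and from 52860685 to 52860730 (57922 reads) with PAGE. Its inner position was 246 to 247 in the 4 crosslinked hnRNPA1 libraries and 239 to 245 in the 4 without UV. The peak was also wider with UV, 46 to 55 nt against 23 to 38 nt. Neither range overlapped. In both sets the place was divided into 2 or 3 peaks of similar reads, so a small margin decided the main one. Without UV and with PAGE, the main peak of replicate 1 held 30790 of 61116 reads over 2 peaks. That of replicate 2, at nt 245, held 27871 of 83212 over 3 peaks. All 7SK peaks together covered 89 to 96 nt with UV and 60 to 64 nt without. Whether the site itself differed with UV was not tested.

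On RMRP without PAGE the main peak of crosslinked hnRNPI lay apart from that of the other 3 proteins. For hnRNPc and RBFOX2 its place differed with PAGE, while hnRNPA1 had nt 149 and 185 with PAGE, around its values without. The main peak held 245 of 487 reads over 2 peaks in replicate 1 of crosslinked hnRNPA1 with PAGE. In replicate 1 of crosslinked hnRNPI without PAGE it held 439 of 2072 over 5 peaks, so its place can turn on few reads. Without PAGE the main peak of crosslinked hnRNPA1 lay at nt 180 and 183, of hnRNPc at nt 181 and 183 and of RBFOX2 at nt 182 in both libraries. Those 3 proteins thus shared a place, and hnRNPI lay at nt 46 and 47. With PAGE the main RMRP peak of hnRNPc lay at nt 70 and 68. Over both settings the main peak lay at nt 45 to 47 in the 4 crosslinked hnRNPI libraries of the 32 and at nt 149 to 185 in the 4 of hnRNPA1, while replicate 1 of hnRNPI with RecJ had nt 159. RBFOX2 without PAGE covered 35657794 to 35657828 and 35657797 to 35657827, and its inner position lay at nt 66 and 47 with PAGE. Without UV, hnRNPI had nt 81 to 160 and hnRNPA1 nt 192 to 193. Among the 32 libraries neither protein's crosslinked and non-crosslinked ranges overlapped on RMRP. Outside them, the nt 159 of crosslinked hnRNPI with RecJ lay within the hnRNPI range without UV. Crosslinked hnRNPA1 at medium RNase had nt 185 and 191, the latter next to its range without UV.

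On RPPH1 the main peak of crosslinked RBFOX2 lay at nt 68 to 69 in the 4 libraries of 50000 cells, with 800 reads at 20811497 to 20811510 and 968 at 20811498 to 20811513 without PAGE. Crosslinked hnRNPI had it at nt 59 to 68, next to RBFOX2. hnRNPA1 had it at nt 67 to 203 across its 4 crosslinked libraries, and without UV the RBFOX2 libraries spread over nt 68 to 235. Crosslinked RBFOX2 libraries of 10000 cells had the RPPH1 peak at nt 68 and 67, and those of 1000 cells at nt 218 and 234.

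On RNY1 the main peak of hnRNPI lay at nt 37 to 47 with UV and at nt 39 to 45 without, so both ranges overlapped. hnRNPA1 had it at nt 42 to 49 with UV and at nt 16 to 20 without, with no overlap between 4 and 4 libraries. The main RNY1 peaks of hnRNPI without PAGE covered 148684283 to 148684305 (1024 reads) and 148684272 to 148684306 (1012 reads). On RNY3, crosslinked hnRNPI had its main peak at nt 13 to 18 in 3 libraries, while the 6 crosslinked libraries of the 32 of the other 3 proteins that listed it had nt 57 to 58 with peaks of at most 11 nt. Among the 32 libraries the main VTRNA1-1 peak lay at nt 46 to 63 in crosslinked hnRNPA1, hnRNPI and RBFOX2 libraries. In the 3 crosslinked hnRNPc libraries that listed VTRNA1-1 it lay at nt 14 to 50. The crosslinked hnRNPA1 peaks held only 13 to 26 reads. No test was run on positions.

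**Figure D2:**
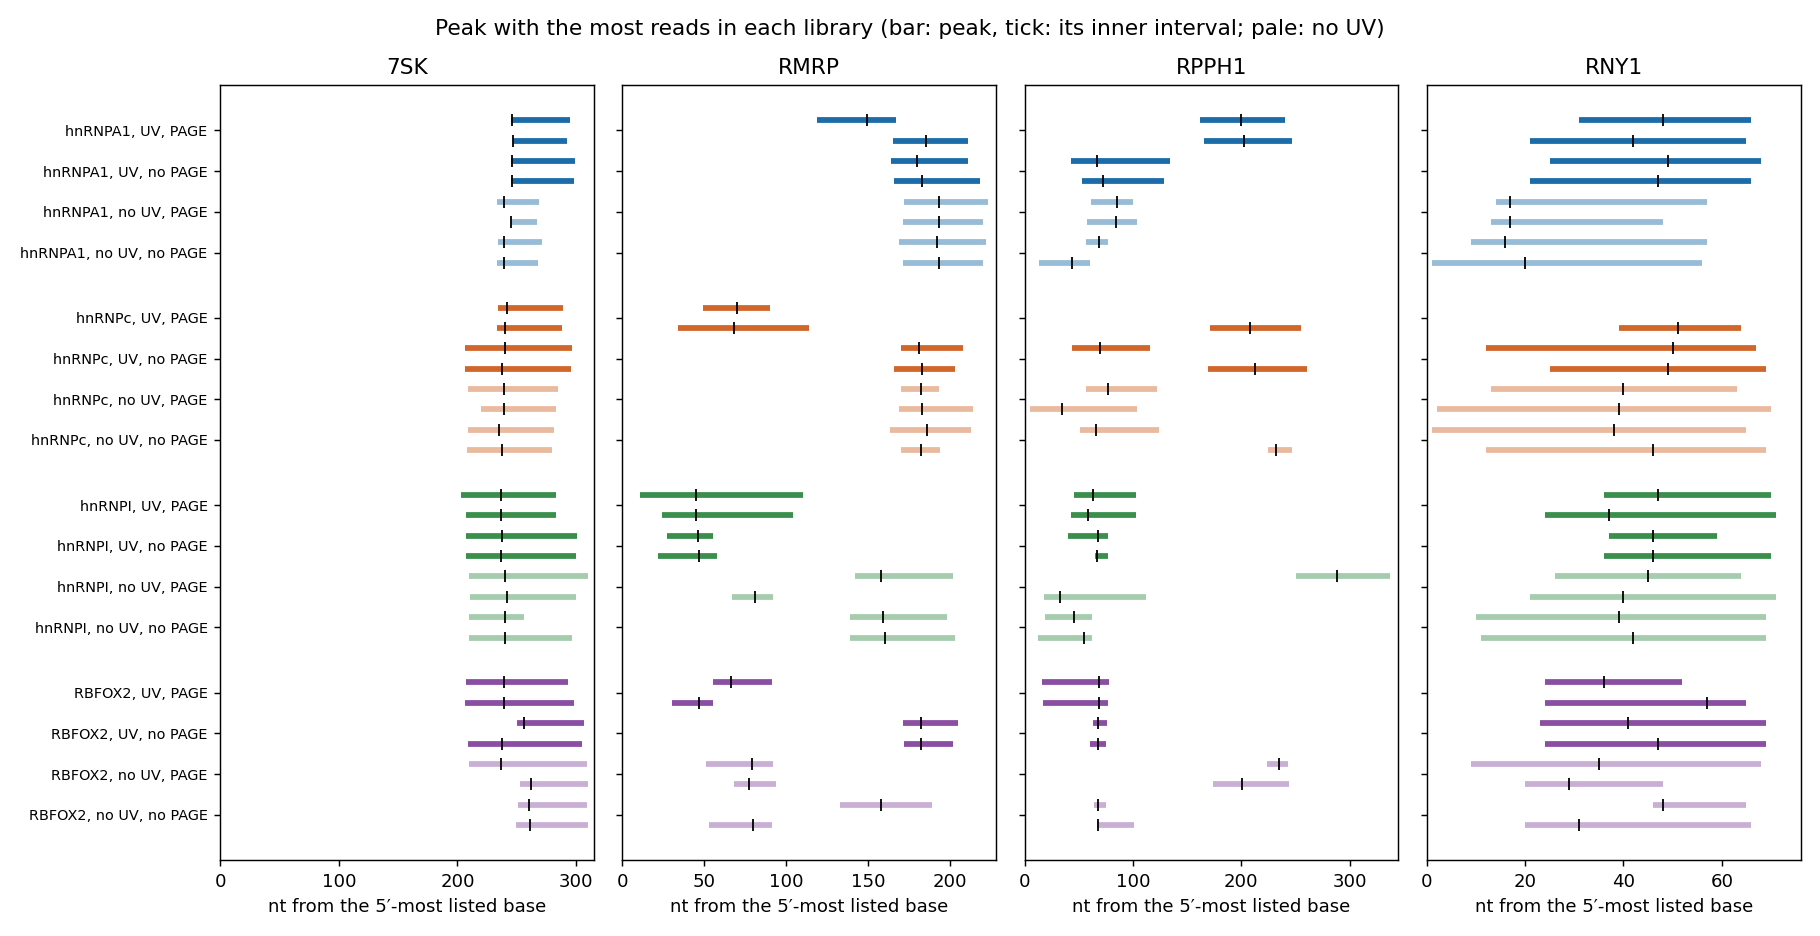
Place of the peak with the most reads in each of the 32 libraries, in nt from the 5′-most listed base; bars are peaks, ticks their inner intervals, and pale bars are libraries without UV. All main 7SK peaks lie past nt 200, and the RMRP peak of crosslinked hnRNPI sits at nt 45 to 47 while that of crosslinked hnRNPA1 sits at nt 149 to 185.

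Omitting PAGE from crosslinked libraries asks whether the gel step changes what is recovered. The mean over proteins of the difference without minus with PAGE was -1.69 on the log2 scale for 7SK (SE 0.33, limma adjusted p = 0.00760), so 7SK fell. It was the only 1 of 6 RNAs called, where 0.676% of all genes were called lower and 0.903% higher. By protein the 7SK difference was -5.03 with hnRNPc, -1.16 with hnRNPA1, -0.49 with hnRNPI and -0.064 with RBFOX2. The difference between proteins in this effect was itself called for 7SK and for none of the others, where 5.13% of all genes were called. For RMRP it had an adjusted p of 0.0561 and was called in 9 of 44 alternatives, among them without the hnRNPc pair (adjusted p = 0.0209) and without its replicate 1 or 2 alone (0.0169 and 7.35e-06). For RPPH1 it was called without replicate 1 or 2 of that pair alone (0.0459 and 6.17e-06) but not without both (0.182). Without the hnRNPc pair with PAGE, 7SK had -0.57 (adjusted p = 0.161), so most of the size came with those 2 libraries. The call was also lost with scaling to the number of peaks (-0.86, adjusted p = 0.131) and with median centring (-1.79, adjusted p = 0.481).

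RPPH1 had a mean difference of 1.28 without minus with PAGE (SE 0.43, limma adjusted p = 0.183) and did not pass. Without the hnRNPc pair RPPH1 did, with 1.00 (adjusted p = 0.00147), and it did so without either replicate of that pair alone, with 0.67 (adjusted p = 0.0180) and 1.89 (adjusted p = 2.17e-07). RPPH1 was higher without PAGE in all 3 other proteins in the values above, most with RBFOX2. RBFOX2 libraries listed 8 and 6 peaks of RPPH1 with PAGE and 14 and 13 without. From the peak with the most reads alone the RPPH1 difference was 0.49 (limma adjusted p = 0.878) and did not pass. The level of that peak was higher without PAGE for RBFOX2, while for hnRNPA1 and hnRNPI the 2 settings overlapped. The part of the number of peaks in the RPPH1 difference was not tested. RMRP had 0.21 (adjusted p = 0.989) and changed sign between proteins: -1.30 with hnRNPc, -0.60 with hnRNPA1, 1.53 with hnRNPI and 1.21 with RBFOX2. Without the hnRNPc pair RMRP had 0.71 (adjusted p = 0.0200). VTRNA1-1 had 0.26, RNY1 0.22 and RNY3 0.39, all with an adjusted p of 0.989. The median difference was 0.24 for the 6 RNAs and 0.10 for all genes.

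Omitting UV asks which RNAs take a larger or smaller share of the listed reads without a crosslink. RPPH1 without UV and with PAGE reached 5091 and 3933 listed RPM with RBFOX2, 2331 and 1607 with hnRNPI, 355 and 413 with hnRNPA1, and 79.1 and 77.2 with hnRNPc. Without PAGE and without UV it had 2969 and 4823, 1734 and 1380, 435 and 265, and 102 and 114 in the same order. Each of these 8 groups lay above the crosslinked libraries of the same protein and PAGE setting that listed RPPH1. For hnRNPc with PAGE that was only replicate 2, at 28.6. Replicate 1 did not list RPPH1 and entered the fit at level 0. RPPH1 rose by 3.73 on the log2 scale with PAGE (SE 0.43, limma adjusted p = 1.63e-06) and by 2.38 without (SE 0.43, adjusted p = 0.000346). The rise of RPPH1 with PAGE was 3.68 without the hnRNPc pair (adjusted p = 1.11e-11). From the peak with the most reads alone it was 2.95 with PAGE and 1.97 without.

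RMRP without UV and with PAGE had 2420 and 3951 listed RPM with RBFOX2, 470 and 872 with hnRNPI, 176 and 253 with hnRNPA1, and 169 and 139 with hnRNPc. Without PAGE and without UV RMRP had 3139 and 2757, 563 and 391, 142 and 87.6, and 193 and 208 in that order. All but the hnRNPc group with PAGE lay above their crosslinked counterparts without overlap. RMRP rose by 1.76 with PAGE (SE 0.27, limma adjusted p = 5.58e-05) and by 1.28 without (SE 0.27, adjusted p = 0.00142). The rise of RMRP with PAGE was 2.696 without the hnRNPc pair (adjusted p = 1.11e-09). For RMRP with PAGE the difference by protein was 3.40 with hnRNPI, 3.00 with RBFOX2, 1.70 with hnRNPA1 and -1.06 with hnRNPc.

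RNY1 without UV and with PAGE had 556 and 1425 listed RPM with RBFOX2, 148 and 251 with hnRNPA1, 36.9 and 28.9 with hnRNPc, and 102 and 87.5 with hnRNPI. Without PAGE and without UV the values were 897 and 714, 57.3 and 27.1, 18.8 and 38.8, and 142 and 77.6. RNY1 therefore lay above the crosslinked libraries that listed it for RBFOX2, hnRNPA1 and hnRNPc, which for hnRNPc with PAGE was only replicate 2. For hnRNPI without PAGE it lay below them, 142 and 77.6 against 408 and 289, and with PAGE the hnRNPI ranges overlapped. In hnRNPI without PAGE, RNY1 had 2 peaks in each library without UV, and 5 and 3 in the crosslinked ones. The peak with the most reads alone had 86.6 and 48.8 without UV against 105 and 114, a smaller gap in the same direction. The part of the number of peaks was not tested. The mean RNY1 difference was 2.58 with PAGE (SE 0.45, limma adjusted p = 0.000163) and 1.74 without (SE 0.45, adjusted p = 0.00536). The RNY1 difference with PAGE was 2.31 without the hnRNPc pair (adjusted p = 2.63e-05). By the exact permutation test within proteins the RNY1 difference without PAGE did not pass (adjusted p = 0.101). With only peaks of p below 1e-05 neither RNY1 call was kept (1.69, adjusted p = 0.130, and 1.12, adjusted p = 0.321).

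VTRNA1-1 without UV and with PAGE had 220 and 721 listed RPM with RBFOX2 and 145 and 42.5 with hnRNPI, the latter from 37 and 17 reads. With hnRNPA1 and PAGE it had 9.43 and 12.5, and with hnRNPc and PAGE it was listed in 1 of 2 libraries at 3.47. Without PAGE and without UV, VTRNA1-1 had 126 and 162 with RBFOX2, 84.2 and 27.5 with hnRNPI, was listed in 1 hnRNPA1 library at 5.38, and was not listed with hnRNPc. VTRNA1-1 rose by 2.24 with PAGE (SE 0.52, limma adjusted p = 0.00236), and by 3.19 (adjusted p = 1.93e-05) without the hnRNPc pair. Without PAGE its difference of 0.61 (SE 0.52, adjusted p = 0.379) did not pass. With only peaks of p below 1e-05 the call with PAGE was lost (0.71, adjusted p = 0.253).

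7SK without UV and with PAGE had 17459 and 28134 listed RPM with hnRNPA1, 1553 and 3405 with RBFOX2, 1465 and 997 with hnRNPI, and 169 and 420 with hnRNPc. Without PAGE and without UV it had 6745 and 6933, 2521 and 2277, 985 and 401, and 175 and 227. 7SK was thus above the crosslinked libraries for RBFOX2 and hnRNPI at both PAGE settings and for hnRNPc without PAGE. The hnRNPA1 ranges overlapped with PAGE and lay lower without UV where PAGE was omitted, and hnRNPc with PAGE lay lower without UV. The mean difference of 7SK without PAGE was 1.22 (SE 0.33, limma adjusted p = 0.00743), which the exact permutation test within proteins did not call (adjusted p = 0.0692). With PAGE it was 0.29 (SE 0.33, adjusted p = 0.533), and without the hnRNPc pair it was 1.80 (adjusted p = 8.43e-06). Without replicate 1 of that pair alone it was 0.69 (adjusted p = 0.0187), and without replicate 2 alone -0.12 (adjusted p = 0.739). With PAGE the protein differences of 7SK ran from -4.25 with hnRNPc to 3.13 with hnRNPI.

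RNY3 was listed in no library without UV that had PAGE, and it entered the fit there at level 0. The 2 hnRNPI libraries among them held 255287 and 400088 listed reads, where the crosslinked RNY3 levels would be only a few reads. With PAGE the hnRNPI difference was -1.88, from 1 crosslinked library that listed RNY3. The mean RNY3 differences were -0.77 with PAGE (SE 0.40, limma adjusted p = 0.142) and -0.83 without (SE 0.40, adjusted p = 0.113). Neither passed, nor did the value with PAGE without the hnRNPc pair (-1.03, adjusted p = 0.0702). The value with PAGE became -1.24 (adjusted p = 0.00379) without replicate 2 of crosslinked hnRNPI with PAGE, which does not list RNY3, and the value without PAGE passed without either library of that group (adjusted p = 0.0277 and 0.0286).

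Across the 6 tested RNAs, 4 were called higher without UV with PAGE (RMRP, RPPH1, VTRNA1-1 and RNY1), where 7.22% of all genes were called higher and 25.9% lower. This became 5, with 7SK added, without the hnRNPc pair. Without PAGE, 4 were called higher (7SK, RMRP, RPPH1 and RNY1), against 6.55% of all genes called higher and 28.9% lower. By limma none of the 6 was called lower in either setting, and 0 of 6 were lower at an unadjusted p below 0.05. The median difference was 2.00 for the 6 RNAs and -0.54 for all genes with PAGE, and 1.25 and -0.57 without. Values are shares of listed reads, so a higher share without UV does not give a higher amount. The background depends on the scaling. With median centring 95.5% of the calls over all genes with PAGE were higher ones, against 21.8% as reported, and 70.9% against 18.5% without PAGE. RMRP, RPPH1, VTRNA1-1 and RNY1 kept a positive UV difference with PAGE under every scaling that was run.

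The limma F test of the interaction, added after the data had been seen, asked whether a UV difference varied between proteins. With PAGE it passed for 7SK, RMRP, VTRNA1-1 and RNY1, where 62.9% of all genes passed. Without PAGE it passed for VTRNA1-1 and RNY1, where 20.0% of all genes did. From the peak with the most reads alone RNY1 passed in neither setting. The VTRNA1-1 call without PAGE was lost in 23 of 44 alternatives. 7SK without PAGE, with a range of 3.04 over the proteins (adjusted p = 0.0510), was called in 14 of 44, among them without the hnRNPc pair (adjusted p = 0.00150). With PAGE the VTRNA1-1 call was lost without that pair (adjusted p = 0.157). The test did not pass for RPPH1 at either setting, whose protein differences lay between 2.79 and 4.17 with PAGE and between 2.20 and 2.82 without. Without the hnRNPc pair the RPPH1 differences with PAGE did pass (adjusted p = 0.0211). A test that misses the threshold does not show that the proteins act alike.

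**Figure D3:**
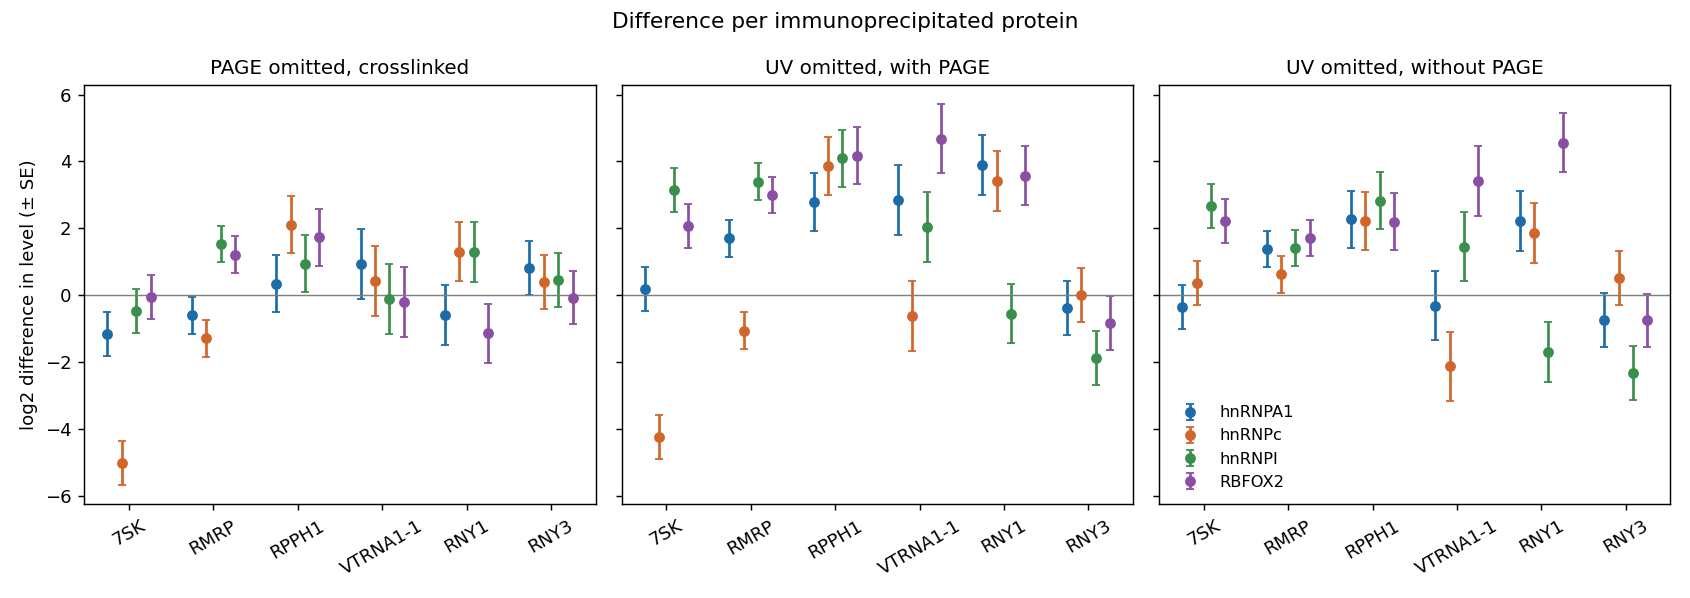
Difference in log2(level + 1) for 6 RNAs and each protein (points, bars are 1 SE), for PAGE omitted and for UV omitted with and without PAGE. RPPH1 lies above 0 for all proteins when UV is omitted, RNY1 lies below 0 for hnRNPI alone in the panels of omitted UV, and 7SK with hnRNPc lies far below 0 in both panels that use the crosslinked hnRNPc libraries with PAGE.

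Accession numbers form 2 runs, one with the crosslinked libraries labelled 50000 cells, among them those titled 5k and 500, and one with all other libraries (no UV, 10000 or 1000 cells, other gel regions). If the runs mark preparation batches, batch and UV cannot be told apart in these tests. Crosslinked libraries of 10000 and 1000 cells lie in the same run as those without UV, with fewer cells and less RNase. There RBFOX2 of 10000 cells with PAGE had 519 and 189 listed RPM of RPPH1, 316 and 166 of RMRP and 47.1 and 33.0 of RNY1. RBFOX2 of 1000 cells had 276 and 243 of RPPH1, 504 and 399 of RMRP and 45.6 and 44.0 of RNY1. Each value lies below both RBFOX2 libraries without UV and with PAGE. The hnRNPc libraries of 10000 cells had 25.1 and 26.4 of RPPH1, below the 79.1 and 77.2 without UV, and 230 and 233 of RMRP, above the 169 and 139 without UV. Those of 1000 cells did not separate from the libraries without UV, with 120 and 41.3 of RPPH1 and 309 and 88.4 of RMRP. Listed reads were also fewer without UV, 255287 to 6688100 against 2484265 to 12349790 in the crosslinked libraries other than the lowest one, and their part in the differences was not tested.

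In the other crosslinked hnRNPc libraries with PAGE, 7SK lay below both libraries of 50000 cells at low RNase. At medium RNase with PAGE, 7SK had 177 and 280 listed RPM, near the 163 and 146 without PAGE, where low RNase gave 15532 and 1669. The 15532 is from the library of 49769 listed reads. With PAGE, 10000 cells gave 919 and 913 of 7SK, and 1000 cells 399 and 758. In hnRNPc libraries without PAGE, 7SK had 96.7 and 87.0 in those titled 5k and 82.1 and 66.2 in those titled 500, although the cell number label of both gives 50000. The RMRP level went the same way without PAGE, from 135 and 126 at 50k to 77.0 and 67.5 at 5k and 64.2 and 56.4 at 500. Each library had 4 peaks of RMRP at 50k, 3 at 5k and 2 at 500. The RMRP peak with the most reads alone had 45.4 and 39.0, 31.0 and 26.4, and 36.2 and 32.3. By that peak 500 lay above 5k, so the order was not kept. RPPH1 in the hnRNPc libraries without PAGE had 27.0 and 18.6, 21.7 and 14.3, and 14.5 and 8.54. These 3 sets were not tested, and neighbouring sets overlapped for RPPH1 but not for 7SK or RMRP. The same sets with RecJ did not repeat this for RMRP, which had 86.8 and 123 at 50k, 100.2 and 99.4 at 5k and 104 and 40.0 at 500. With RecJ, RPPH1 had 20.6 and 18.2, 31.9 and 21.8, and 22.9 and 18.6, with no order either. 7SK with RecJ had 179 and 137, 99.3 and 102, and 94.8 and 79.2, again with no overlap between neighbouring sets.

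In the other gel regions, all cut from hnRNPc gels, 7SK, RMRP and RPPH1 were the only 3 of the 7 RNAs listed. The libraries of 75 to 100 kDa held 288638 and 405472 listed reads, and those of the other regions 9785 to 17210. 7SK had 17894 and 15886 listed RPM at 50 to 75 kDa, 582 and 360 at 75 to 100 kDa, 10629 and 15898 at 100 to 150 kDa and 9592 and 7438 at 150 to 250 kDa. RMRP followed with 4496 and 4526, 135 and 66.6, 5519 and 9593, and 2622 in 1 of 2 libraries. RPPH1 had 2158 and 1293, 125 and 24.7, 2453 and 4842, and 3105 in 1 of 2 libraries. For each of the 3 RNAs the region from 75 to 100 kDa was the lowest without overlap among the libraries that listed it. In the other regions, with so few listed reads, RMRP or RPPH1 at such a low level could hardly be listed. For these RNAs the lack of overlap therefore cannot show a difference between regions. Counts were small, with 104 to 199 reads of 7SK in the 3 regions other than 75 to 100 kDa, and 168 and 146 in that region.

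**Figure D4:**
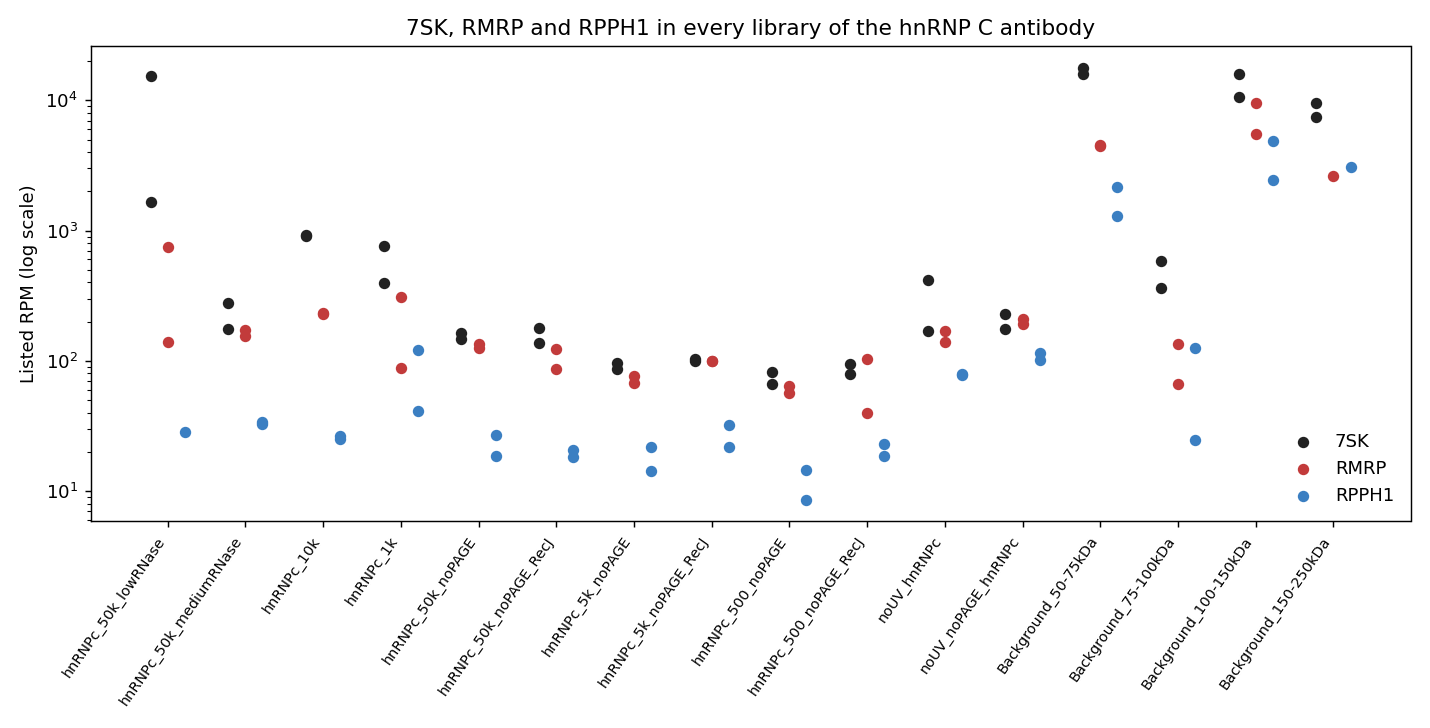
Listed RPM (log scale) of 7SK, RMRP and RPPH1 in each library group of the hnRNPc antibody; points are libraries, and libraries without a point do not list the RNA. For 7SK the low RNase library with PAGE that holds 49769 listed reads has 15532, in the range of the gel regions outside 75 to 100 kDa. Its replicate has 1669. At 75 to 100 kDa, where libraries hold the most listed reads of the gel regions, the 3 RNAs have their lowest listed RPM among these regions. For RMRP and RPPH1 this cannot show a difference, since so low a level could hardly be listed in the other regions. Reads of 7SK numbered 168 and 146 there and 104 to 199 in the other regions.

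RecJ digestion was compared by values alone. 7SK with hnRNPA1 had 14464 and 13695 listed RPM with RecJ, against 8764 and 8792 without it. Its place held 3 peaks in each library with RecJ and 2 in each without, over 95 to 97 nt in all 4. The peak with the most reads alone gave 5124 and 4855 with RecJ and 4574 and 4564 without, so most of the difference in the 7SK level came with the added peak. In hnRNPI libraries 7SK had 111 and 91.3, which overlapped the values without RecJ. RNY1 with RBFOX2 had 57.3 and 85.4 with RecJ from 2 and 3 peaks, and 31.98 and 33.7 without RecJ from 1 peak each. Its peak with the most reads had 35.9 and 40.2 with RecJ, above those without. For RNY1 with hnRNPI the peak with the most reads had 111 and 106 with RecJ and 105 and 114 without, which overlapped. Medium RNase with hnRNPA1 and PAGE gave 8397 and 7777 of 7SK, below both libraries at low RNase.

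Among the members, the profiles over the 16 group means were most alike for RPPH1 and RNY1 (Spearman rho 0.826), while the highest rho of 7SK with another member was 0.088, with RPPH1. The closest gene to RMRP and the closest to RPPH1 were their own second identifiers, with a rho of 0.991 each. The gene closest to RNY1, with a rho of 0.906, was an identifier without a name here on chromosome 5, listed from 140098545 to 140098598 on the plus strand, 7587 nt past the last listed base of VTRNA1-1. The 16 means share libraries and scaling, and the correlations are descriptions without a test.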

How the data were processed

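TLC-CLIP was run on HEK293T cells in 68 libraries. Per the submitters' processing notes, the tools were bcl2fastq, STAR 2.7.3a and UMI-tools 1.0.1, and the genome build was hg19; the file names give CLIPper as the peak caller, whose settings no source used here gives. Each deposited list has 8 columns: the place of a peak, a name, the p-value that the authors' caller gave it, the strand and an inner interval. Peaks were called per library. The last number of the name was read as reads over the peak, an unstated meaning, and neighbouring peaks can share reads. The files and tables used here pair no Ensembl identifier with a symbol, so member names follow the list of identifiers from which members were taken. Members and comparisons were chosen with earlier results of these data known.

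Reads were summed per gene and scaled per 1000000 listed reads. log2(level + 1) of the 15396 genes listed in at least 8 of 32 libraries was fitted with limma 3.58.1 (R 4.3.3; 16 group means, 16 residual degrees of freedom, moderated with a trend), and p-values were adjusted by Benjamini-Hochberg over all genes. A gene not listed entered at level 0. The 5 comparisons were the 3 differences for PAGE and UV, averaged over 4 proteins with equal weight, and 2 moderated F tests between proteins; the interaction F test (3 degrees of freedom) was added later. Every member is reported in all comparisons, and the peak with the most reads stands for its position. The 45 alternatives changed the pseudocount, filter, scaling, p limit, block, libraries or test. Scaling without mitochondrial peaks and the omission of the hnRNPc pair were chosen after seeing the data. The fit was tested on simulated data. RNA lengths are from RefSeq (GRCh38.p14). Sequencing depth is unknown, and no counting interval was computed. Member sequences were not used here. Python 3.11.15 with pandas 2.3.3 computed the other values.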

Additional observations from a re-analysis of the deposited data

Results flagged for a closer look

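The effect of a step differed between the 4 proteins in 7 cases, by limma's F test of the interaction with Benjamini-Hochberg adjustment over 15396 genes (n = 2 libraries per group). Of all genes the same test called 5.13% for PAGE omitted, 62.9% for UV omitted with PAGE and 20.0% for UV omitted without PAGE. A call for UV omitted with PAGE was therefore the common case. The size given is the highest minus the lowest protein difference on the log2 scale.

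For 7SK the effect of omitting PAGE ranged over 4.97 (adjusted p = 0.00734), from -5.03 with hnRNPc to -0.064 with RBFOX2. Without the crosslinked hnRNPc pair with PAGE it ranged over 1.10 (adjusted p = 0.701), and the call was also lost without replicate 2 of crosslinked hnRNPc without PAGE (4.89, adjusted p = 0.0560). The effect on 7SK of omitting UV with PAGE ranged over 7.39 (adjusted p = 1.48e-05), from -4.25 with hnRNPc to 3.13 with hnRNPI, and it was called in all 44 alternatives run for it, with adjusted p up to 0.00365.

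For RMRP the effect of omitting UV with PAGE ranged over 4.46 (adjusted p = 0.000334), from -1.06 with hnRNPc to 3.40 with hnRNPI, and it was called in all 44 alternatives, with adjusted p up to 0.0208.

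For RNY1 the effect of omitting UV ranged over 4.45 with PAGE (adjusted p = 0.0132) and over 6.27 without PAGE (adjusted p = 0.00857). The lowest protein was hnRNPI in both, with -0.56 and -1.70, and the highest was hnRNPA1 with 3.90 and RBFOX2 with 4.57. With PAGE the call was lost in 4 of 44 alternatives, among them without replicate 1 of crosslinked hnRNPI with PAGE (3.23, adjusted p = 0.136). Without PAGE it was lost in 3. From the peak with the most reads alone both RNY1 calls were lost, with ranges of 2.57 with PAGE (limma F test adjusted p = 0.0684) and 3.42 without (0.0559).

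For VTRNA1-1 the effect of omitting UV ranged over 5.31 with PAGE (adjusted p = 0.0263) and over 5.54 without PAGE (adjusted p = 0.0417), from hnRNPc (-0.63 and -2.13) to RBFOX2 (4.68 and 3.41). These calls were lost in 7 and 23 of 44 alternatives, most of them fits without 1 library, with adjusted p up to 0.220 and 0.143. Without the hnRNPc pair the range with PAGE was 2.65 (adjusted p = 0.157).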

How the results depend on the processing

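The counts of called RNAs moved as follows. For PAGE omitted the count of 1 became 0 with the exact permutation test within proteins and with median centring (2 RNAs had an unadjusted p below 0.05 under each), and 2 with a pseudocount of 10, with scaling to the number of peaks and without the hnRNPc pair; leaving out 1 library gave 1 to 2. For UV omitted with PAGE the count of 4 became 0 with the exact permutation test (no gene of 15396 passed after Benjamini-Hochberg adjustment, though 2380 genes and 4 of the 6 RNAs had an unadjusted p below 0.05; RPPH1 had the smallest p it can give, 0.00154, adjusted 0.05002) and 2 at p below 1e-05, with 4 to 5 in the leave-one-out fits. For UV omitted without PAGE it became 2 with the exact permutation test, where 7SK and RNY1 lost the call, with 4 to 5 in the leave-one-out fits. Between proteins with PAGE, 5 became 1 when only the libraries of the comparison were fitted, with 4 to 6 in the leave-one-out fits, and without PAGE these gave 4 to 5. The cause of these moves was not tested.

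Under the alternatives run, signs turned only in differences that had not been called. For PAGE omitted, RMRP became -0.58 with the top peak alone and -0.091 without hnRNPc replicate 2; RNY1 -0.20 without hnRNPc replicate 1, -0.089 without hnRNPI replicate 2 and -0.14 without the hnRNPc pair; RNY3 -0.20 at p below 1e-05 and -0.075 without hnRNPI replicate 2; VTRNA1-1 -0.030 with a pseudocount of 10 and -0.17 without hnRNPc replicate 1. For UV omitted, 7SK with PAGE became -0.12 without hnRNPc replicate 2, RNY3 0.75 and 0.13 with and without PAGE under median centring, and VTRNA1-1 without PAGE -0.43 with a pseudocount of 0.1. Over the leave-one-out fits these differences reached 0.51 for RMRP, 0.63 for RNY1, 0.86 for RNY3 and 0.69 for VTRNA1-1 with PAGE omitted, and 0.69 for 7SK with UV omitted.

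Same-numbered libraries did not deviate together (120 pairs of groups, median r -0.0018, 2 over 0.1). With the replicate block the 5 counts of called RNAs were 1, 4, 4, 4 and 5, and no call changed. Scaling without mitochondrial peaks changed no call either. RNY3 has no value with a filter of 24 libraries, and the permutation test was not run between proteins.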
